A study of Mus musculus with 19 samples.

Results

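A group of 5 genes of the epithelial alarm system of type 2 immunity was described across sorted nasal epithelial cells of the mouse: Il25, Tslp and Il33, which encode cytokines, and Il17rb and Il17ra, which encode the receptor chains for IL-25. They were chosen by symbol, and all 5 were found among the 26221 genes of the authors' normalized count table, each in a single row. Their values were followed over 19 libraries. The question was where in the nasal epithelium these genes are transcribed, and whether their levels differ between cholinergic cells of high and low light scatter.

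The cells came from naive ChAT(BAC)-eGFP mice, a transgenic line that all 3 groups share. A bacterial artificial chromosome with Chat regulatory sequence drives eGFP in this line, so the fluorescence marks cells that make, or made, the acetylcholine-synthesizing enzyme. FSChi (5 libraries) and FSClow (9 libraries) were CD45-negative, EpCAM-positive, eGFP-positive cells with high and with low forward and side scatter. EpCAM (5 libraries) was the CD45-negative, EpCAM-positive, eGFP-negative remainder of the epithelium, a mixture of cell types. Tissue was dissociated with dispase and then papain, and dead cells were excluded with propidium iodide. The labels give no age and no treatment. Nothing in them states that replicate libraries derive from different animals or cultures. The p-values then describe the spread between these libraries alone, and that spread may be technical.

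IL-25, also called IL-17E, binds a receptor made of IL-17RB, which confers ligand specificity, and IL-17RA, which other IL-17 cytokines share. TSLP binds CRLF2 paired with the IL-7 receptor alpha chain, and IL-33 is a nuclear cytokine of the IL-1 family that binds ST2 (gene Il1rl1) paired with IL1RAP. In the intestine and airways these cytokines act on group 2 innate lymphoid cells, and tuft cells, also called brush or solitary chemosensory cells, are a known source of IL-25 in the mouse.

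Total counts per library were 1348428 to 7477695 in FSChi, 2151281 to 5439263 in FSClow and 4137303 to 6487644 in EpCAM. Chat, the reporter's own gene, had 183 to 433 CPM in FSChi (counts scaled to library size) and 448 to 587 CPM in FSClow, against 0.151 to 3.09 CPM in EpCAM. The summed level of 12 tuft cell markers was 7482 to 12850 CPM in FSChi and 8084 to 9447 CPM in FSClow, against 23.2 to 53.4 CPM in EpCAM. Each library also has its own file of RSEM estimates, and 5 of the 19 columns of the count table did not correlate best with the file of the same name. FSChi 3, 4 and 5 and EpCAM 1 and 2 were the 5, and in each case the best-matching file belonged to the same group. Columns FSChi 3 and FSChi 5 both correlated best with the file FSChi 4, at r = 0.970 and 0.927. The value for FSChi 5 was the lowest best match of the 19 columns. The file named FSChi 3 is nearly empty, with 6807 expected counts. Results that rest on these libraries are given below also for the 14 matching columns, which leave 2 FSChi, 9 FSClow and 3 EpCAM libraries.

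Compared per kilobase of exon in each gene's merged transcripts, Il25 and Il17rb were the most abundant of the 5 in both cholinergic groups, and Il33 was the most abundant in EpCAM. In FSChi the mean normalized count per kilobase was 2062 ± 903 for Il25, 144 ± 66.5 for Il17rb, 13.0 ± 11.7 for Il33, 4.87 ± 2.65 for Il17ra and 3.33 ± 5.60 for Tslp (SD, n = 5). In FSClow it was 6288 ± 4538 for Il25, 305 ± 46.9 for Il17rb, 8.74 ± 4.86 for Il17ra, 4.60 ± 2.05 for Il33 and 0.135 ± 0.289 for Tslp (SD, n = 9). In EpCAM it was 41.4 ± 24.3 for Il33, 4.35 ± 2.08 for Il17ra, 2.20 ± 0.971 for Il17rb, 1.22 ± 2.03 for Il25 and 1.09 ± 0.796 for Tslp (SD, n = 5). Within FSChi the lower ranks of Il33, Il17ra and Tslp lay within each other's spread, as did Il17ra and Il33 in FSClow. In EpCAM the neighbours Il17ra, Il17rb, Il25 and Tslp lay within each other's spread, and only Il33 stood above the others there by more than that spread.

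**Figure D1:**
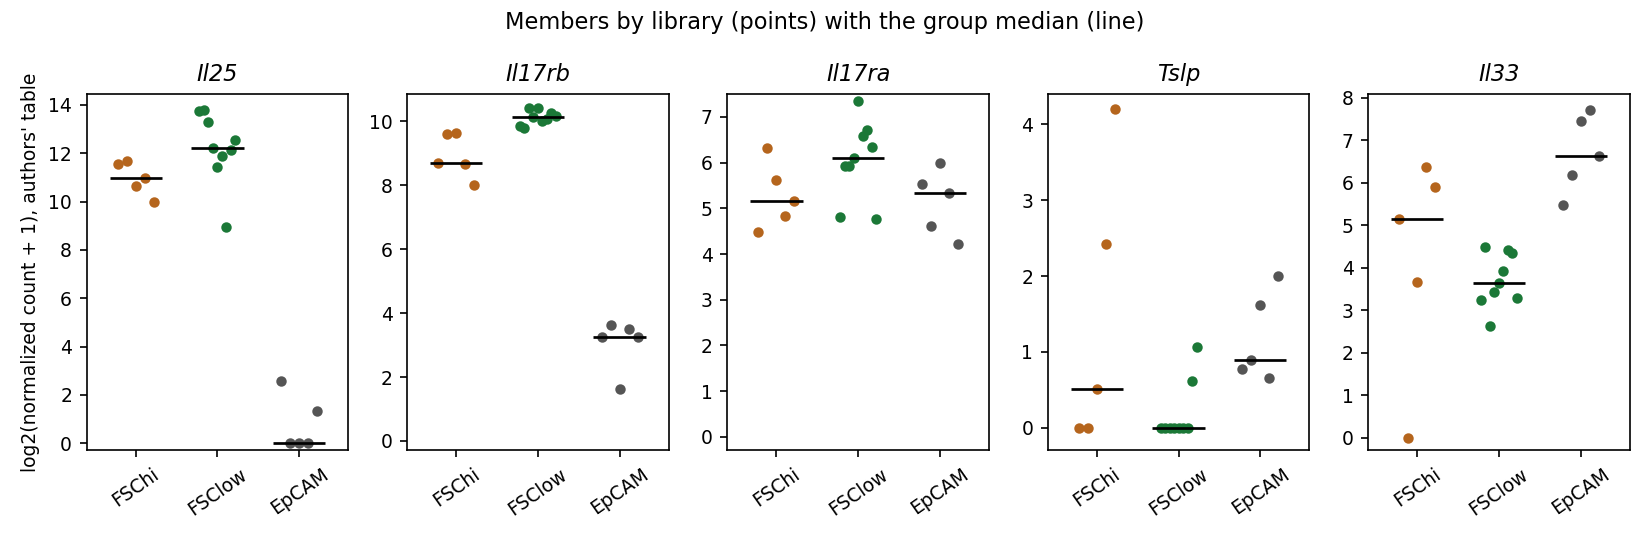
Normalized count of each gene in every library, on the vertical axis as log2(normalized count + 1), with the groups FSChi, FSClow and EpCAM on the horizontal axis; points are libraries and lines are group medians. Il25 and Il17rb are high in both cholinergic groups and far lower in EpCAM, where the median of Il25 is 0, while Il33 is highest in EpCAM.

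Il25 (Entrez 140806) lies on the plus strand of chromosome 14 at 54932695 to 54935837 (GRCm38.p6, the assembly of mm10, here and below). It was among the most abundant transcripts of the cholinergic cells and was nearly absent from the eGFP-negative epithelium. Its normalized counts in FSChi 1 to 5 were 3025, 3302, 1611, 2023 and 1009. In FSClow the lowest, median and highest were 494.6, 4716 and 14090. In EpCAM 1 to 5 they were 4.99, 0, 0, 0 and 1.51. No cholinergic library overlapped the EpCAM range, and even the lowest, FSClow 7, stood far above EpCAM 1. By TPM, a length-scaled abundance, in the single-library files Il25 ranked between 38 and 111 among all genes in the 4 FSChi files with reads and between 12 and 338 in the FSClow files, with a median rank of 18 in FSClow.

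Against EpCAM, Il25 was higher in FSClow by 12.47 ± 1.13 on the log2 scale (SE, adjusted p = 2.355e-08 by edgeR) and in FSChi by 10.76 ± 1.09 (SE, adjusted p = 3.545e-07 by edgeR). Adjusted p-values come from edgeR's quasi-likelihood test over all 13340 genes that passed a filter on low counts, and a gene is called at an adjusted p under 0.05. The EpCAM reads behind these fold changes were 7 in EpCAM 1 and 3 in EpCAM 5. Without EpCAM 1 the differences were 13.68 and 12.01, and over the matching columns 13.42 and 12.29. The 2 EpCAM libraries with Il25 reads were also those with the most reads of Trpm5, the cation channel of taste-type transduction in tuft cells, with 11 and 29 counts against 0 to 1 in the other 3. Chat did not follow, with 12 and 1 counts in EpCAM 1 and 5 against 13, 13 and 17 in EpCAM 2, 3 and 4. The tuft marker sum was 53.4 and 38.7 CPM in EpCAM 1 and 5. It was 29.7, 23.2 and 40.5 CPM in EpCAM 2, 3 and 4. Mean Il25 in EpCAM was 0.0164% of its FSClow mean, while the tuft marker sum in EpCAM was 0.425% of its own FSClow mean. In sorted bulk libraries fewer cells of a type and less RNA per cell cannot be told apart.

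Between the cholinergic groups Il25 averaged 2194 ± 961 normalized counts in FSChi and 6689 ± 4827 in FSClow (SD, n = 5 and 9). The difference was −1.71 ± 0.64 on the log2 scale and missed the threshold (SE, adjusted p = 0.05825 by edgeR). The groups overlapped: FSClow 7 lay below all FSChi libraries, and FSClow 5, at 2733 normalized counts, lay below FSChi 1 and 2. Without FSClow 7 it was called at −1.83 (adjusted p = 0.01491 by edgeR), and without EpCAM 1 at −1.67 (adjusted p = 0.04862 by edgeR). In the matching columns it was −1.13 ± 0.87 (SE, adjusted p = 0.4515 by edgeR).

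Il25 was the most variable of the 4 tested genes within FSClow, with a highest value 28.5 times the lowest and a coefficient of variation of 72.2%, against 15.4% for Il17rb in the same libraries. FSClow 1, 2 and 3 were highest at 13670, 14090 and 10110 normalized counts, and FSClow 7 was lowest. A set of 9 relations of Il25 to other measures was computed across the 9 FSClow libraries after the spread had been seen, and they describe these libraries. Spearman's rho with Il17ra was −0.83 (exact permutation p = 0.008267, adjusted over the 9 relations 0.03231) and Pearson's r was −0.58 (exact permutation p = 0.1051, adjusted 0.313). Leaving out FSClow 5 and 9, the farthest from the median of Il17ra, r was −0.71. For Trpm5 rho was −0.82 (exact permutation p = 0.01077, adjusted 0.03231) and r was −0.62 (exact permutation p = 0.073, adjusted 0.313). Without FSClow 1 and 2 r with Trpm5 was −0.23, so that relation rests on them.

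The mitochondrial share of counts moved with Il25 as well. It was 4.67%, 5.68% and 4.69% in FSClow 1, 2 and 3 and 3.27% in FSClow 7, with rho = 0.88 (exact permutation p = 0.003075, adjusted 0.02768) and r = 0.76 (exact permutation p = 0.01842, adjusted 0.1658). Without FSClow 2 and 8 r was 0.96. Its part in the spread of Il25 was not tested. The other 6 relations, to Il17rb, Il33, Chat, total counts, genes detected and the basal marker sum, had absolute r of at most 0.57 and adjusted p of at least 0.313 by the exact permutation test of r. Without the 2 libraries farthest from each measure's median, r was −0.67 for Il33, 0.61 for total counts, 0.36 for genes detected and −0.06 for Il17rb. It turned from negative for Chat (0.22) and the basal sum (0.64). Il17rb, the receptor chain for IL-25, had r = −0.08 and rho = −0.32 with Il25 (exact permutation p = 0.854 and 0.4101).

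**Figure D2:**
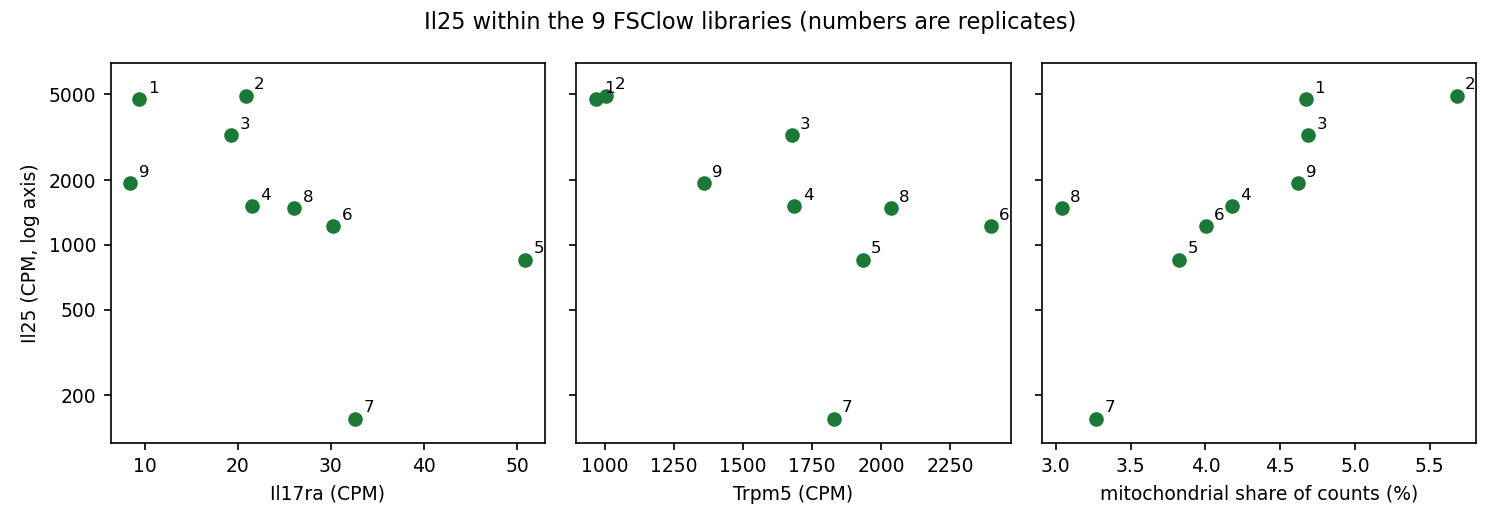
Il25 in CPM on a log axis against Il17ra in CPM, Trpm5 in CPM and the mitochondrial share of counts in percent, for the 9 FSClow libraries, with replicate numbers beside the points. Libraries 1 and 2 combine the highest Il25 with the lowest Trpm5, and library 7 has the lowest Il25.

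Il17rb (Entrez 50905) lies on the minus strand of chromosome 14 at 29996168 to 30008896. This receptor chain for IL-25 was transcribed by the same sorted groups as the cytokine. Its coefficient of variation was 46.4% in FSChi and 15.4% in FSClow. Its normalized counts in FSChi 1 to 5 were 410.8, 780.8, 805.2, 409.3 and 254.5. In FSClow the lowest, median and highest were 879.8, 1131 and 1384. In EpCAM 1 to 5 they were 8.56, 11.3, 2.07, 10.4 and 8.55. All 3 groups were separate, with every FSChi library below every FSClow library and above every EpCAM library.

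Il17rb was higher than in EpCAM by 7.32 ± 0.38 in FSClow (SE, log2, adjusted p = 5.128e-13 by edgeR) and by 6.17 ± 0.37 in FSChi (SE, log2, adjusted p = 1.094e-11 by edgeR). In FSChi it was lower than in FSClow, with a log2 difference of −1.15 ± 0.27 (SE, adjusted p = 0.002378 by edgeR). In the matching columns these were 7.42, 6.47 and −0.95, and the last, with only FSChi 1 and 2 against FSClow, was not called (adjusted p = 0.08524 by edgeR). FSChi 2 and 3, which had the highest Il17rb of their group, also had the lowest sums of basal and secretory markers in FSChi, and the part of those transcripts in the difference was not tested. Il17rb shares 141 exon bases with Actr8 on the other strand, and the sources used here do not say that counting used strand. Actr8 averaged 42.7 ± 11.2 CPM in FSChi, 64.7 ± 13.8 CPM in FSClow and 32.9 ± 4.50 CPM in EpCAM (SD, n = 5, 9 and 5).

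The 250 bases before the annotated starts of Il17rb and Il33 are shown because these 2 genes were called in opposite directions in FSClow against EpCAM; they were the 2 of the 5 genes matched in the RefSeq promoter table (GRCm38.p6). Each runs 5′ to 3′ on the gene's strand, with motif matches in capitals. The windows are chr14:30008897-30009146 on the minus strand for Il17rb, and chr19:29924863-29925112 and chr19:29945540-29945789 on the plus strand for 2 starts of Il33.
Il17rb: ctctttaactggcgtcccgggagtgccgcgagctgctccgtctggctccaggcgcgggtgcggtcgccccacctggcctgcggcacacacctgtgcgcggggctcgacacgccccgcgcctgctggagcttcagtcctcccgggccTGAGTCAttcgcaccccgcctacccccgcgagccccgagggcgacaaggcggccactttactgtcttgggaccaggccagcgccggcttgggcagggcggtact
Il33 first start: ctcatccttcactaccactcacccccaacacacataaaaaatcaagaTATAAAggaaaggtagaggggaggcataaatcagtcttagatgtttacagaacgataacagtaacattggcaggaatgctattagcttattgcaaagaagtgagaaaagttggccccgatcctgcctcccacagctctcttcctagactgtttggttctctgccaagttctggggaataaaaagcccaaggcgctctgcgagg
Il33 second start: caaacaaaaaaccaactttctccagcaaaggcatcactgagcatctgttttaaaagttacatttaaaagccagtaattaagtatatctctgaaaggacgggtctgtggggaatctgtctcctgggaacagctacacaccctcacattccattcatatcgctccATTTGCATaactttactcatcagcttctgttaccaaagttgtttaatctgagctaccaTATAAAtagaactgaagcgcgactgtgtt

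Each window was searched on both strands for 3 motifs. ATGCAAAT, the octamer bound by POU factors, a family that includes the tuft cell factor POU2F3, is found in 1.60% of 32851 promoter windows of this length. TGANTCA, an AP-1 site, is in 6.75% of them, and TATAAA, the TATA box, in 12.4%. No matches of different motifs overlapped. The Il17rb window holds an AP-1 match at −104 to −98 from the start and neither of the others, and its GC content is 72.0%. The first Il33 window holds TATAAA at −203 to −198, with a GC content of 45.2%. The second holds the octamer, in the reverse orientation ATTTGCAT, at −87 to −80 and TATAAA at −29 to −24, with a GC content of 39.6%. These matches describe letters in the windows and are not measured binding sites.

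Il17ra (Entrez 16172) lies on the plus strand of chromosome 6 at 120463181 to 120483731. The shared chain of the IL-17 receptors was detected in all 19 libraries at low counts, 19 to 152 reads, and separated the groups far less than Il17rb. Its normalized counts in FSChi 1 to 5 were 21.4, 79.1, 48.3, 27.3 and 34.7. In FSClow the lowest, median and highest were 26.3, 67.2 and 162.9. In EpCAM 1 to 5 they were 45.6, 23.4, 62.7, 39.2 and 17.6. All 3 groups overlapped, with 5 of 9 FSClow libraries above all EpCAM libraries.

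Il17ra was higher in FSClow than in EpCAM by 1.23 ± 0.40 (SE, log2, adjusted p = 0.0138 by edgeR). With the matching columns the difference was 1.08 ± 0.52 and was not called (SE, adjusted p = 0.1162 by edgeR). In limma fits of log2 TPM it was 0.98 or 0.89, depending on the pseudocount, and was not called either (adjusted p = 0.6812 and 0.3516 by limma). FSChi differed from EpCAM by 0.28 ± 0.44 (SE, log2, adjusted p = 0.6914 by edgeR) and from FSClow by −0.95 ± 0.40 (SE, log2, adjusted p = 0.08938 by edgeR), and neither passed the threshold. Without FSChi 2 the difference from EpCAM was −0.01, and it was below 0 in limma fits of log2 TPM, between −0.02 and −1.09. The difference from FSClow was called at −1.26 without FSChi 2, at −1.05 without FSClow 1 and at −1.06 without FSClow 9 (adjusted p = 0.0301, 0.04857 and 0.04586 by edgeR).

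Tslp (Entrez 53603) lies on the plus strand of chromosome 18 at 32815383 to 32819799 and was at the limit of detection throughout. Its raw counts in FSChi 1 to 5 were 0, 0, 1, 7 and 15. Of the 9 FSClow libraries 7 had no read and FSClow 8 and 9 had 1 each. In EpCAM 1 to 5 the counts were 1, 1, 3, 1 and 6. FSChi 4 and 5 held nearly all the reads of their group and both lay above the FSClow range. Where a library had no read, a floor of 3 counts corresponds to 0.702 to 2.403 CPM in FSChi and 0.857 to 1.48 CPM in FSClow. Levels under this floor cannot be told from absence in those libraries.

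Tslp did not pass the filter on low counts, so its differences are given as ratios of summed counts per scaled depth, with 95% exact intervals that cover counting error only. FSChi had 23 reads and FSClow 2, a ratio of 15.3 (interval 3.77 to 133.6). Without FSChi 5 the ratio was 6.13 (1.22 to 59.3), and without FSChi 4 and 5 it was 1.08 (0.0184 to 20.8). FSClow against EpCAM, with 2 and 12 reads, gave 0.165 (0.0180 to 0.742), and FSChi against EpCAM gave 2.52 (1.204 to 5.56), or 1.01 (0.359 to 2.69) without FSChi 5. FSChi 4 and 5 are among the columns that did not match their files.

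Il33 (Entrez 77125) lies on the plus strand of chromosome 19 at 29925113 to 29960718. It was the alarmin of the eGFP-negative epithelium and ran opposite to Il25 and Il17rb. Its normalized counts in FSChi 1 to 5 were 34.7, 0, 11.6, 82.0 and 59.0. In FSClow the lowest, median and highest were 5.24, 11.5 and 21.5. In EpCAM 1 to 5 they were 43.5, 71.8, 174.4, 209.7 and 98.6. Every FSClow library lay below every EpCAM library, while FSChi 4 and 5 lay within the EpCAM range and FSChi 2 had no read.

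Il33 was lower in FSClow than in EpCAM, with a log2 difference of −2.90 ± 0.49 (SE, adjusted p = 3.129e-05 by edgeR), or −3.41 ± 0.48 over the matching columns (SE, adjusted p = 1.429e-05 by edgeR). FSChi differed from EpCAM by −1.48 ± 0.56 and missed the threshold (SE, adjusted p = 0.05541 by edgeR). That difference was called without FSClow 2, FSChi 4 or EpCAM 1, at −1.52, −2.01 and −1.74. FSChi was higher than FSClow by 1.43 ± 0.51 (SE, log2, adjusted p = 0.04232 by edgeR), a call that was lost when any of 8 libraries was left out, FSClow 1, 3, 4, 6 or 9 or FSChi 1, 4 or 5. Its value without each was 0.98 to 1.49, the lowest without FSChi 4. In limma fits of log2 TPM the direction turned, with values between −0.08 and −1.62. The −1.62 is from a fit with the nearly empty FSChi 3 file, where the median over all genes was −1.40. The −0.08 is from a fit without that file, where the median was −0.14. In the matching columns the difference from EpCAM was −2.81 ± 0.80 and was called (SE, adjusted p = 0.02627 by edgeR), and the difference from FSClow was 0.60 ± 0.64 and was not (SE, adjusted p = 0.5914 by edgeR).

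The 3 FSChi libraries with the most Il33 also had the highest sums of basal, secretory, sustentacular and olfactory neuron markers in their group, but not of ionocyte markers. Summed CPM of 10 basal cell markers was 2203, 945 and 1091 in FSChi 1, 4 and 5, against 239 and 209 in FSChi 2 and 3. The sum over 8 secretory markers was 7735, 8961 and 11860 CPM in FSChi 1, 4 and 5 and 415 and 575 CPM in FSChi 2 and 3. The sustentacular sum was 1275, 4153 and 2776 CPM in FSChi 1, 4 and 5 and 432 and 1010 CPM in FSChi 2 and 3, and the olfactory neuron sum was 2898, 2788 and 1445 CPM against 244 and 1293 CPM. Ionocyte markers summed to 26.3, 989 and 29.8 CPM in FSChi 1, 4 and 5 and to 18.5 and 436 CPM in FSChi 2 and 3. Basal sums were 131 to 282 CPM in FSClow and 2356 to 6568 CPM in EpCAM, with at least some reads of all 10 markers in each group. Mean Il33 in FSChi was 34.7% of its EpCAM mean, and in FSClow 13.1%. The matching shares of the basal sum were 21.8% and 4.69%, of the sustentacular sum 30.4% and 6.62%, and of the secretory sum 46.5% and 0.511%. The part of these transcripts in the level of Il33 was not tested. Summed leukocyte markers were 20.9 to 47.5 CPM in FSChi, 7.45 to 36.0 CPM in FSClow and 20.3 to 63.3 CPM in EpCAM, with Cd3e at 0 in all 3 groups.

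**Figure D3:**
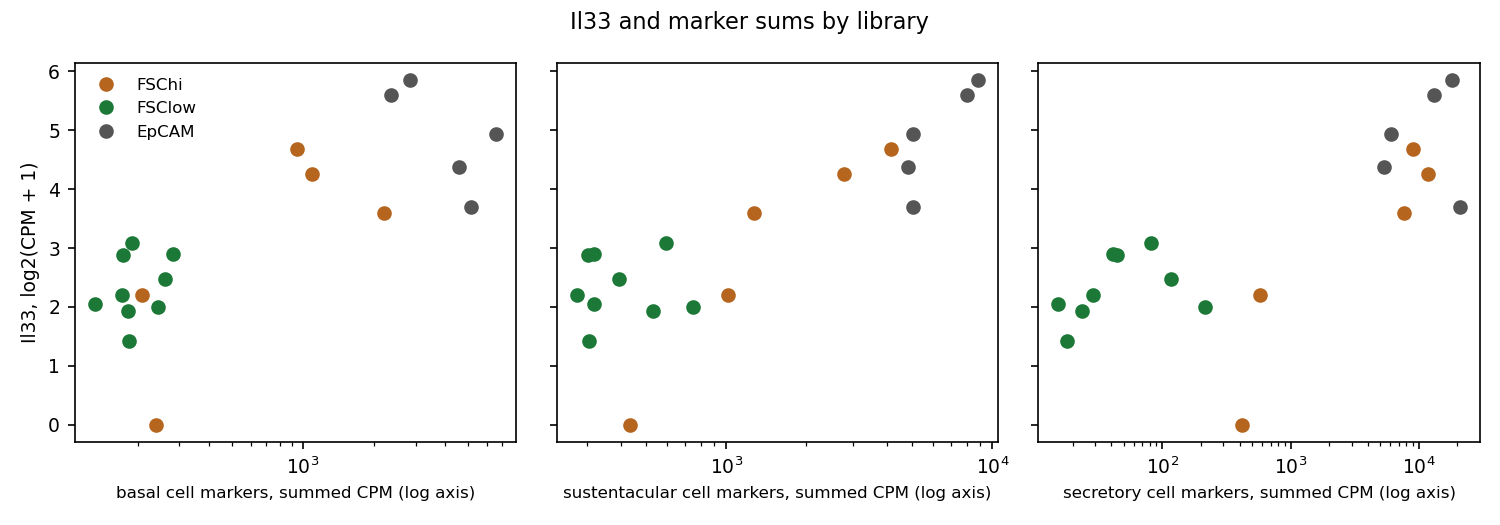
Il33 on the vertical axis as log2(CPM + 1) against the summed CPM of basal, sustentacular and secretory cell markers on log axes; each point is a library of FSChi, FSClow or EpCAM. The 3 FSChi libraries with basal sums of 945 to 2203 CPM have more Il33 than all FSClow libraries.

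In total, 3 of the 4 tested genes (Il25, Il17rb and Il17ra) were called higher and 1 (Il33) lower in FSClow against EpCAM, where 45.1% of all genes were called, 22.0% higher and 23.1% lower. In FSChi against EpCAM 2 of 4, Il25 and Il17rb, were called higher and 0 lower, against 13.5% and 12.2% of all genes (25.6% in either direction). There 1 gene, Il33, had an unadjusted p under 0.05 in the lower direction by edgeR, and DESeq2 called it (adjusted p = 0.02673). With the authors' size factors in place of TMM the share of all calls that were higher was 35.84%, against 48.71%, in FSClow against EpCAM and 41.23%, against 52.53%, in FSChi against EpCAM. In FSChi against FSClow 1 of 4 was called higher and 1 lower, against 15.5% and 9.30% of all genes (24.8% in either direction). In the matching columns the counts were 2 higher and 1 lower in FSClow against EpCAM, and 2 higher and 1 lower in FSChi against EpCAM. They were 0 in either direction in FSChi against FSClow, where Il17rb was the 1 gene with an unadjusted p under 0.05 by edgeR. Of 14193 genes in that fit, those called higher and lower were 2011 and 3091, 1048 and 790, and 1331 and 423 in these comparisons. The same numbers stand beside the matching-column counts of the lists below. The comparisons with EpCAM share its 5 libraries.

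**Figure D4:**
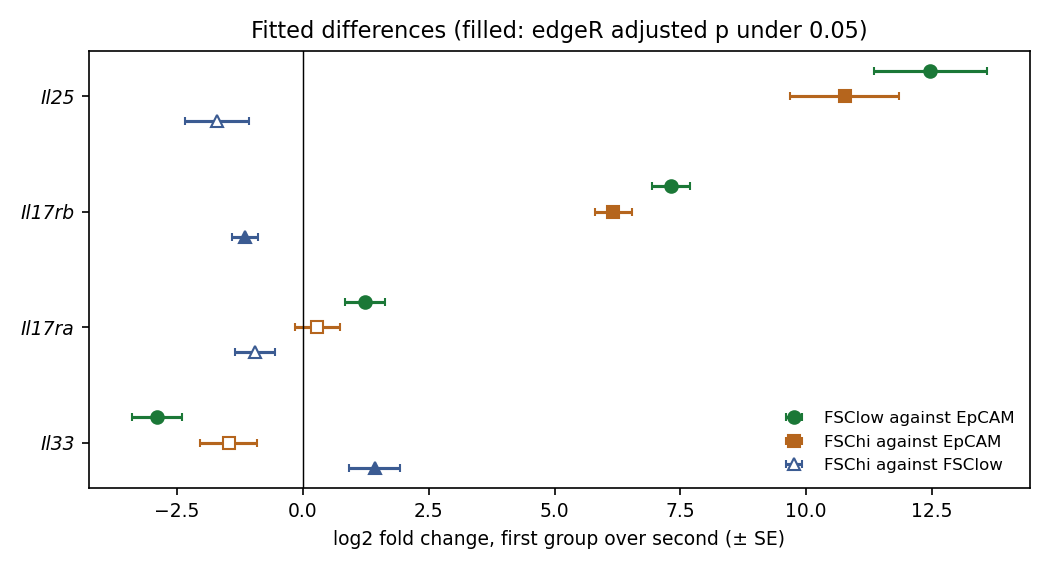
Log2 fold change with its standard error for the 4 tested genes in FSClow against EpCAM, FSChi against EpCAM and FSChi against FSClow, the first group over the second; filled symbols mark an edgeR adjusted p under 0.05. Il25 and Il17rb lie at 6.17 or above in both comparisons with EpCAM, and Il33 lies below 0 in both.

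Ratios within a library do not depend on scaling between libraries, and 4 were compared between FSChi and FSClow by two-sided exact permutation tests. The log2 count ratio of Il17rb to Trpm5 was −2.81 ± 0.67 in FSChi and −2.12 ± 0.40 in FSClow (SD, n = 5 and 9, exact permutation p = 0.02897, adjusted over the 4 ratios 0.1159). Without FSChi 4 or FSChi 5 the difference of −0.69 was −0.73 or −0.40 (exact permutation p = 0.05315 or 0.08112). Il25 to Trpm5 was −0.76 ± 1.05 in FSChi and −0.03 ± 1.83 in FSClow (exact permutation p = 0.4316, adjusted 0.4316). Il17rb to Il17ra was 3.66 ± 0.58 in FSChi and 4.08 ± 0.79 in FSClow (exact permutation p = 0.3227, adjusted 0.4316). Il33 to Tslp was 3.33 ± 2.53 in FSChi and 4.27 ± 0.96 in FSClow (exact permutation p = 0.3397, adjusted 0.4316). None passed the threshold after adjustment.

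The other IL-17 receptor chains ran opposite to Il17rb. Of 8 further IL-17 family ligands and receptors, 3 could be tested, and all 3 were lower in both cholinergic groups than in EpCAM. Of all genes 23.1% were called lower in FSClow and 12.2% in FSChi against EpCAM. The median log2 fold change of the 3 was −2.18 in FSClow and −1.68 in FSChi, against medians of 0.05 and −0.02 over all tested genes. Il17re, which pairs with IL-17RA in the receptor for IL-17C, differed by −5.27 ± 0.58 in FSClow and −2.11 ± 0.58 in FSChi (SE, adjusted p = 7.125e-08 and 0.00911 by edgeR). Its reads were 134 in FSChi, 18 in FSClow and 761 in EpCAM. Il17rc, which pairs with IL-17RA in the receptor for IL-17A and IL-17F, differed by −2.17 ± 0.26 and −1.06 ± 0.30 (SE, adjusted p = 2.28e-07 and 0.01075 by edgeR). Il17rd, an orphan-type relative, differed by −2.18 ± 0.40 and −1.68 ± 0.46 (SE, adjusted p = 6.814e-05 and 0.009648 by edgeR). In FSChi against FSClow Il17re and Il17rc were higher, where 15.5% of all genes were called higher. Il17re differed by 3.16 ± 0.61 (SE, adjusted p = 0.0004059 by edgeR). Il17rc was at 19.98 CPM in FSChi against 9.24 CPM in FSClow (adjusted p = 0.003493 by edgeR). With the matching columns all 3 were again called lower in FSClow than in EpCAM, Il17re was called lower in FSChi, and 0 were called between FSChi and FSClow. The ligand genes Il17a, Il17b, Il17c, Il17d and Il17f had at most 39 reads in any group.

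Of 12 genes of IL-17 receptor signalling, 4 were higher and 3 lower in FSClow than in EpCAM, 2 and 2 in FSChi against EpCAM, and 1 and 3 in FSChi against FSClow. The shares of all genes called higher and lower were 22.0% and 23.1%, 13.5% and 12.2%, and 15.5% and 9.30% in those comparisons, and the counts of this list are not far from them. Traf3ip2, whose product Act1 is the adaptor that binds IL-17 receptors, was higher than in EpCAM by 2.12 ± 0.25 in FSClow and 1.44 ± 0.27 in FSChi (SE, adjusted p = 2.046e-07 and 0.0003084 by edgeR). Tab2, a partner of the kinase TAK1, was higher by 2.01 ± 0.21 and 0.83 ± 0.23 (SE, adjusted p = 3.7e-08 and 0.008771 by edgeR). Nfkbiz, an inducible nuclear IkappaB protein, was lower, at −0.60 ± 0.23 and −1.86 ± 0.28 (SE, adjusted p = 0.03899 and 2.447e-05 by edgeR), and Tnfaip3, a deubiquitinase that restrains NF-kappaB, was at −1.65 ± 0.59 and −3.34 ± 0.77 (SE, adjusted p = 0.02633 and 0.002698 by edgeR). The median of the 12 was −0.13 in FSClow and −0.06 in FSChi against EpCAM, and −0.37 in FSChi against FSClow, where the median of all genes was −0.01. In the matching columns the counts were 3 higher and 1 lower in FSClow against EpCAM, 1 and 1 in FSChi against EpCAM, and 0 and 1 in FSChi against FSClow. Traf3ip2 was called in both comparisons with EpCAM there, and Nfkbiz in both comparisons of FSChi.

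Of 12 receptor and signalling genes for TSLP and IL-33, 9 were tested, and 6 were higher and 0 lower in FSClow than in EpCAM, 4 and 0 in FSChi against EpCAM, and 0 higher and 2 lower in FSChi against FSClow. Of all genes 22.0% were called higher and 23.1% lower in FSClow against EpCAM, 13.5% and 12.2% in FSChi against EpCAM, and 15.5% and 9.30% in FSChi against FSClow. In the directions with 0 calls edgeR gave 0 genes with an unadjusted p under 0.05, and with relative log expression scaling 1, Myd88, was called lower in FSClow than in EpCAM. Irak1, a kinase of the MyD88 pathway, was higher than in EpCAM by 2.53 ± 0.22 in FSClow and 2.02 ± 0.23 in FSChi (SE, adjusted p = 1.309e-09 and 3.256e-07 by edgeR), and Il1rap, the accessory chain of the IL-33 receptor, by 1.98 ± 0.39 and 1.14 ± 0.42 (SE, adjusted p = 0.0001695 and 0.04757 by edgeR). Sigirr, an inhibitory receptor of the IL-1 family, was higher by 1.36 ± 0.22 and 1.29 ± 0.23 (SE, adjusted p = 1.164e-05 and 0.000235 by edgeR). Jak2 and Stat5b were lower in FSChi than in FSClow, at −1.13 ± 0.37 and −1.29 ± 0.41 (SE, adjusted p = 0.0293 and 0.02475 by edgeR). The ligand-binding chains were near 0. Il1rl1 had 0 reads in FSChi, 2 in FSClow and 1 in EpCAM, Il7r had 2, 0 and 11, and Crlf2 had 13, 51 and 14. Medians of the 9 were 1.21 in FSClow and 0.43 in FSChi against EpCAM, and −0.51 in FSChi against FSClow. The matching columns gave 4 higher in FSClow and 1, Irak1, in FSChi against EpCAM, and 2 lower, Stat5a and Stat5b, in FSChi against FSClow, where Jak2 was not called.

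Of 6 type 2 cytokine genes, Areg, an epidermal growth factor receptor ligand, alone was tested. It was lower than in EpCAM, at −3.30 ± 0.93 in FSClow and −3.12 ± 1.1 in FSChi (SE, adjusted p = 0.00517 and 0.04228 by edgeR), and was not called over the matching columns. Areg reads were 20 in FSChi, 23 in FSClow and 206 in EpCAM. Il9 and Il13 had no reads, and Il4, Il5 and Csf2 had at most 6 in any group. Of 10 other danger signals and IL-1 family genes 3 were tested. Il18 was lower in FSClow than in EpCAM, at −5.38 ± 0.72 (SE, adjusted p = 1.235e-06 by edgeR) and higher in FSChi than in FSClow by 5.14 ± 0.73 (SE, adjusted p = 1.324e-05 by edgeR). Its reads were 100 in FSChi, 3 in FSClow and 156 in EpCAM, so the fitted values rest on 3 FSClow reads. Il1rn, the IL-1 receptor antagonist, differed by −3.11 ± 0.74 in FSClow against EpCAM and by 2.45 ± 0.76 in FSChi against FSClow (SE, adjusted p = 0.001216 and 0.01966 by edgeR), and the second was not called in the matching columns. Il1rn reads were 117 in FSChi, 29 in FSClow and 280 in EpCAM. Hmgb1, a chromatin protein with alarmin activity, was higher than in EpCAM by 0.64 ± 0.16 in FSClow and 0.53 ± 0.17 in FSChi (SE, adjusted p = 0.001458 and 0.02502 by edgeR), and was not called over the matching columns.

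Of 11 genes known to respond to IL-17 in epithelium 7 were tested, and 6 were lower and 1 higher in FSClow than in EpCAM, 4 lower and 1 higher in FSChi against EpCAM, and 1 lower and 3 higher in FSChi against FSClow. The shares of all genes called lower and higher were 23.1% and 22.0%, 12.2% and 13.5%, and 9.30% and 15.5%. Nfkbiz, called lower in each comparison, is also on the list of IL-17 receptor signalling and is counted in both lists. Pigr, the transporter of polymeric immunoglobulins, differed by −6.68 ± 0.72 in FSClow against EpCAM and by 5.65 ± 0.72 in FSChi against FSClow (SE, adjusted p = 1.873e-07 and 8.68e-06 by edgeR). Lcn2, a siderophore-binding antimicrobial protein, was lower than in EpCAM, at −5.64 ± 0.69 in FSClow and −3.33 ± 0.73 in FSChi (SE, adjusted p = 3.059e-07 and 0.001661 by edgeR). Cxcl5, a neutrophil chemokine, was lower, at −5.38 ± 0.92 and −5.58 ± 1.15 (SE, adjusted p = 3.185e-05 and 0.0008788 by edgeR). The exception was Zc3h12a, a ribonuclease that degrades cytokine mRNAs, which was higher by 2.63 ± 0.46 and 1.63 ± 0.48 (SE, adjusted p = 3.881e-05 and 0.01418 by edgeR). Reads in FSClow were 25 for Pigr, 17 for Lcn2 and 8 for Cxcl5. In FSChi they were 58 for Lcn2 and 6 for Cxcl5, so the fitted values of these genes rest on few reads. The medians of the 7 were −4.15 in FSClow and −1.86 in FSChi against EpCAM. In the matching columns 4 were lower and 1 higher in FSClow and 1 and 1 in FSChi against EpCAM, and 1 lower and 2 higher in FSChi against FSClow, where Lcn2 was not called. No called gene of these lists changed sign under the scalings tried. The shifts in basal, sustentacular and secretory marker sums given for Il33 run in the same direction as those of Il17re, Il17rc, Il18, Il1rn and Pigr, and their part was not tested.

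**Figure D5:**
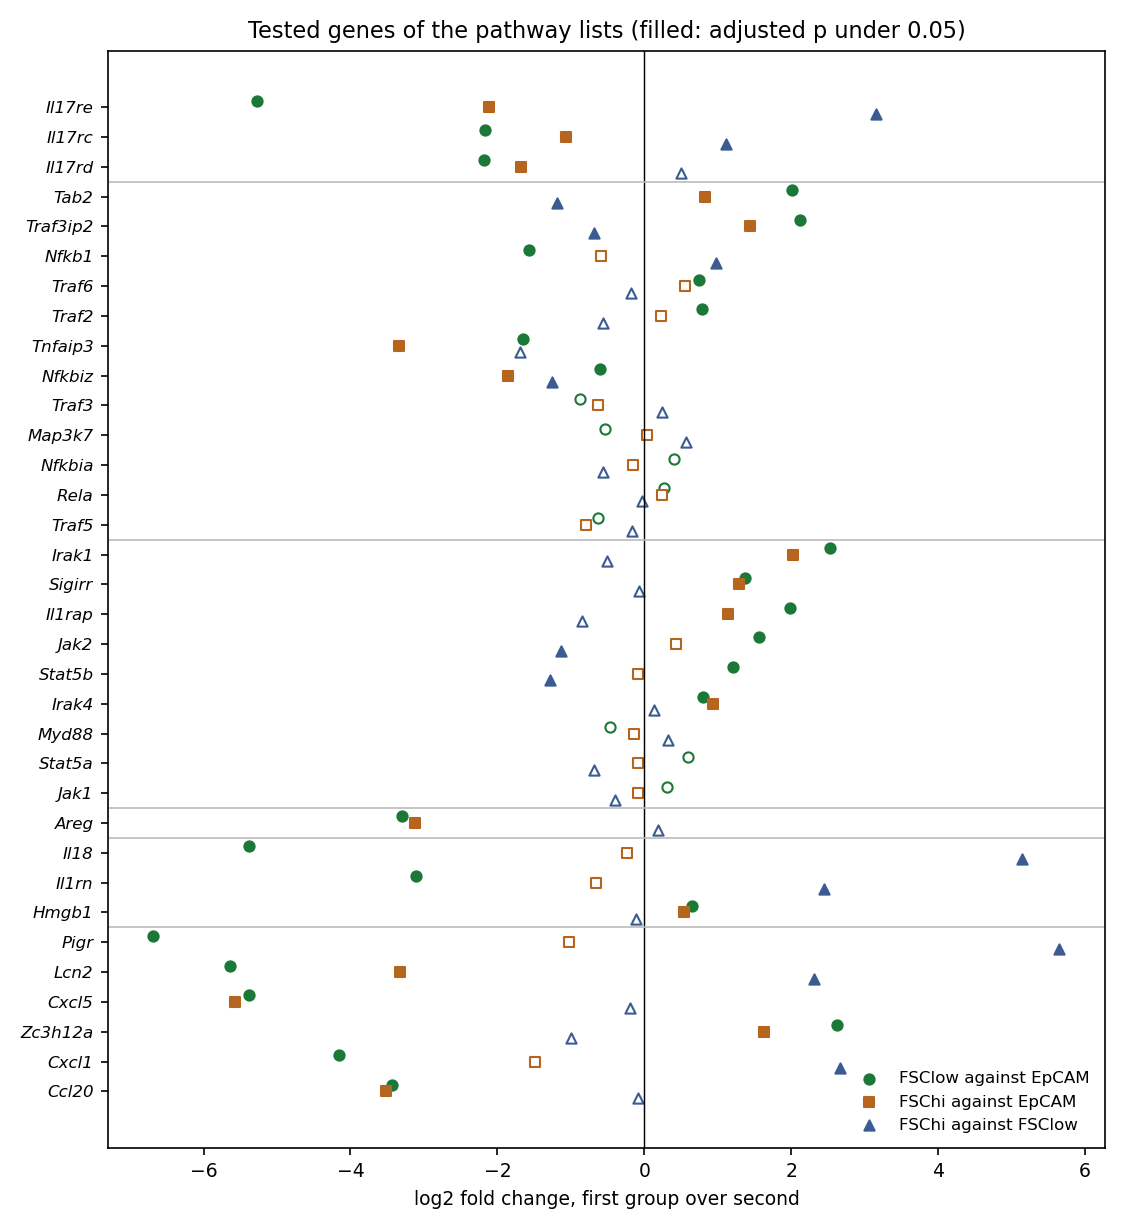
Log2 fold changes of the tested genes of the pathway lists in the 3 comparisons, the first group over the second, with filled symbols for an edgeR adjusted p under 0.05 and grey lines between lists. The upper block holds Il17re, Il17rc and Il17rd, all lower in both cholinergic groups than in EpCAM, and the lowest block holds the IL-17 response genes, of which Zc3h12a alone lies above 0 in both. Nfkbiz, also a response gene, is drawn only in the block of IL-17 receptor signalling.

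The genes whose profiles over the 19 libraries were most like each of the 4 tested genes were found among 8614 tested genes by the root mean square difference of centred log2 CPM. This is a description, since the libraries share their groups. For Il25 they included Fyb at 1.05, Alox5ap, Trpm5 and Sh2d6 at 1.42. For Il17rb the distances were smaller, with Gfi1b at 0.51 and then Rasgrf2, Hmx3, Arhgap4 and Ptgs1 at 0.66. Hmx3 averaged 63.9 ± 21.1 CPM in FSChi, 151 ± 41.9 CPM in FSClow and 0.0613 ± 0.0839 CPM in EpCAM (SD, n = 5, 9 and 5). For Il17ra, which varied least between groups, they were Epm2aip1 at 0.34, Jak2, Erbb3, Cdc14a and Ints7 at 0.40. For Il33 they were Plxna1 at 0.83, Sec14l3, Rp2, Adgrl1 and Elmod3 at 0.85. Sec14l3, a marker on the sustentacular list, averaged 125 ± 112 CPM in FSChi, 83.6 ± 31.4 CPM in FSClow and 321 ± 139 CPM in EpCAM (SD, n = 5, 9 and 5).

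Within FSClow alone, where Il25 spread most, the highest Pearson correlations with Il25 over the 9 libraries were those of Ywhaz (0.99), Psmd11 (0.99) and Atf4 (0.99). Atf4, a transcription factor of the integrated stress response, was at 53.1 CPM at its lowest and 549 CPM at its highest in FSClow. Psmd11, a subunit of the proteasome lid, ranged between 87.0 and 170 CPM, and Ywhaz, a 14-3-3 adaptor, between 143 and 450 CPM. With Il17rb the highest were Zbtb38 (0.94), Gsr (0.94) and Cdip1 (0.94). These are the highest of 8614 genes over 9 libraries of 1 sorted group, which differ in depth, and no test was made.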

How the data were processed

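RNA-seq libraries from sorted nasal cells were deposited as a table of whole-number counts, a table of the authors' normalized counts (signal) and, per library, RSEM expected counts, TPM and FPKM. The submitters' processing notes name mm10 and the tools featureCounts, DESeq2, RSEM 1.2.21, Picard 1.1073 and STAR 2.4.2a, with no roles. All deposited normalized values were counts divided by a library factor: 100.0% were whole reads within 0.01 after multiplication, so recovered reads equal the count table. FPKM values were not used. The members, lists and tests were chosen with earlier results of these data known.

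Counts of 19 libraries were fitted with edgeR 4.0.16 (TMM, filterByExpr by group, robust quasi-likelihood, R 4.3.3), with Benjamini-Hochberg adjustment over 13340 genes and calls at 0.05. On simulated data the fit was checked. Alternatives used DESeq2 1.42.0, limma 3.58.1 on log2(TPM + 0.1 or 1), other scalings and filters, RSEM expected counts rounded to whole numbers and libraries left out. Ratio tests used a pseudocount of 0.5. Named genes were the 5 members, up to 4 genes per list with the smallest p per comparison, genes near 0 given by their reads, and the 5 genes most like each member, of which 1 is not reported here. Predicted models and genes averaging under 3 log2 CPM were left out of the likeness search. Intervals cover counting error only.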

Additional observations from a re-analysis of the deposited data

Results flagged for a closer look

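A pair of groups held a Tslp library far from the others of its group, among 15 gene-by-group sets tested. The rule flags about 1 in 20 sets by chance where values are normally distributed. That rate does not carry over to counts this near 0. In FSChi the highest library, FSChi 5, had 17.35 normalized counts of Tslp (15 reads), against 0, 0, 0.431 and 4.35 in the other 4, a gap to the nearest of 0.749 of the group's range. In FSClow the highest library, FSClow 9, had 1.096 normalized counts (1 read), against 0.526 in FSClow 8 and 0 in the other 7, a gap of 0.52 of the range. The count behind the FSClow value is a single read, within the floor of 3 counts.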

How the results depend on the processing

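Of 245 recomputed values that leave out no single library, 193 kept their direction and side of the threshold or stayed within 1.5 times the main count. Il25 and Il17rb in both comparisons with EpCAM were among them under every alternative run. Over leave-one-out fits Il25 ranged over 12.05 to 13.68 (FSClow) and 10.37 to 12.01 (FSChi against EpCAM), and Il17rb over 6.99 to 7.43 and 5.86 to 6.29. The cause was not tested for the changes that follow.

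With limma on log2(TPM + 0.1) or log2(TPM + 1), genes called were 2736 or 3551 in FSClow against EpCAM, 1505 with 0.1 in FSChi against EpCAM, and 249 or 890 in FSChi against FSClow. With the nearly empty file left out, an alternative added after seeing the data, the last were 1964 or 1986. In these TPM fits Il17ra in FSClow against EpCAM was 0.98 or 0.89, with or without that file. Il33 there was −2.58 with 0.1. Il17ra in FSChi against EpCAM was −1.09 or −0.46 (−0.0489 or −0.0162 without the file), and Il33 was −4.20 or −2.78 (−3.33 or −2.37). The median over all genes in that comparison was −1.56 or −0.82 (−0.26 or −0.19 without the file). In FSChi against FSClow Il17rb was −1.39 or −1.38 (−1.22 with 0.1 without the file), and Il33 was −1.62 or −0.49 (−0.75 or −0.0812).

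The matching columns gave 1838 genes called in FSChi against EpCAM and 1754 in FSChi against FSClow. Il17ra in FSClow against EpCAM was 1.08, Il33 in FSChi against EpCAM −2.81, and in FSChi against FSClow Il17rb was −0.95, Il33 0.60, the Il25 to Trpm5 ratio 0.10 and the Il17rb to Trpm5 ratio −0.29. RSEM expected counts gave Il33 in FSChi against FSClow as 1.23, also without the empty file, and the Il17rb to Trpm5 ratio as −0.10, or −0.39 without it. Il33 in FSChi against EpCAM was called at −1.59 (relative log expression scaling), −1.52 (stricter filter), −1.63 (authors' size factors) and −1.61 (DESeq2). Il33 in FSChi against FSClow lost its call at 1.47 with no filter and 1.49 with only those groups in the fit, which called 2106 genes. A pseudocount of 2 gave the Il33 to Tslp ratio as 0.0015.

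Same-numbered libraries showed no clear pairing. Over 15 such pairs the correlation of deviations ran from −0.192 to 0.404, with 3 over 0.1. In 3 pairs the library correlated best with its own number. The numbers are those of the count columns, and FSChi 3, 4 and 5 and EpCAM 1 and 2 did not match their files. The check therefore cannot decide whether libraries were paired. A replicate block gave 1982 genes called in FSChi against FSClow, Il25 there as −2.02 (called), Il33 as 1.39 and the Il17rb to Trpm5 ratio as −0.89 (smallest exact p with 5 pairs, 0.0625), and Il17ra in FSClow against EpCAM as 1.12, none of these last 3 called.

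Leave-one-out ranges were 5430 to 6508, 2702 to 3572 and 2634 to 3498 genes called in FSClow against EpCAM, FSChi against EpCAM and FSChi against FSClow. In the same order Il17ra was 0.91 to 1.40, −0.0074 to 0.47 and −1.26 to −0.68, and Il33 was −3.20 to −2.71, −2.01 to −1.20 and 0.98 to 1.71. In FSChi against FSClow Il25 was −1.91 to −1.44 and Il17rb −1.33 to −0.95. The ratios were −0.56 to −0.22 (Il17rb to Il17ra), −1.75 to −0.11 (Il33 to Tslp), −1.17 to −0.43 (Il25 to Trpm5) and −0.83 to −0.40 (Il17rb to Trpm5).

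Over all tested genes the median difference (log2) was 0.05 in FSClow and −0.02 in FSChi against EpCAM, and −0.17 and −0.18 with the authors' size factors. The share of calls that were higher was 48.71%, 52.53% and 62.51% in FSClow against EpCAM, FSChi against EpCAM and FSChi against FSClow. It was 38.22%, 42.82% and 68.64% with relative log expression scaling, 35.84%, 41.23% and 70.52% with the authors' size factors, and 34.12%, 42.2% and 67.73% with DESeq2. Without the filter Tslp was −2.27, 1.58 and 3.85 (edgeR adjusted p = 0.1083, 0.3684 and 0.01427), and with DESeq2 −2.31, 1.58 and 3.89 (adjusted p = 0.2086, 0.4757 and 0.03059). Depth limits Tslp everywhere, Il33 in FSClow with 4 to 37 reads, and Il25 in EpCAM with 0 to 7 reads.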
